A study of Mus musculus with 4 samples.

Results

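The comparison described here was that of MK-801 with conditioning against MK-801 alone in mouse hippocampal CA1 at 2 h, the second of 4 times in the series. It was made on 1 array with 2 dyes, and its members are the genes measured on that array. Of the 16281 spots, the 1521 with a deposited value of exactly 0 (9.34%) were read as not measured, the median of the remaining spots was subtracted, and the spots of a gene were averaged where the spot named exactly 1 gene. This left 10151 genes at 2 h of the 10622 measured on any of the 4 arrays. A single spot stood for 7714 of them, and 2437 had 2 or more spots.

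Both RNA samples came from CA1 of young male C57BL/6J mice that had received MK-801, at 300 micro-g per g body weight as the labels give the dose. The MK C+S mice were injected 1 h before contextual fear conditioning, in which 2 min in a new context ended with a 1 s shock of 0.5 mA, given 3 times in all. They went back to the home cage 1 min after the last shock, and RNA was taken 2 h after that shock. The labels name no conditioning for the MK mice, which had the same drug and dose, and their RNA was taken at the matching time. Cyanine-3 (green) marked the MK RNA and Cyanine-5 (red) that of MK C+S, with no dye swap, so dye and treatment cannot be told apart. The number of animals behind each sample, and whether they were pooled, was not stated in the labels used.

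CA1 pyramidal neurons receive the output of CA3 and are needed for the memory of a context paired with a shock. The NMDA receptor is a glutamate-gated channel that lets calcium in when a synapse is active and the cell is depolarised, and MK-801 blocks the open channel. Calcium entry through this receptor and through voltage-gated channels switches on immediate early genes, first transcription factors such as the Fos, Jun and Egr proteins and then effectors that act at synapses. Because both samples had the drug, the log ratio compares conditioning with no conditioning under blockade, and it does not measure the effect of the drug.

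A positive log ratio is read here as higher in MK C+S. That direction is likely rather than stated: red over green is the usual way of writing such a ratio, and red held MK C+S on each array. Base-10 logarithms were assumed, so that 2-fold is 0.301. With 1 array there was no replicate at 2 h, hence no error for a gene across animals and no p-value. An array ratio also gives no level, so the tissue could not be checked against the levels of its markers.

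The only error within the array came from repeated spots of a gene, and it was large beside the ratios. Within genes, spots varied with a pooled SD of 0.204 in log10 units. The central 50% of genes lay between -0.1 and 0.0924. Over 2931 pairs of spots of one gene, leaving out Gapdh, the Spearman correlation was 0.0734, and 52.0% of the pairs had the same sign. Spots that shared 1 accession did little better, with 0.0819 over 497 pairs. These pairs share an array and, in part, a gene with other pairs, so the correlations are descriptions. A gene with 1 spot shows no such error of its own, and the SD of 0.204, against 0.301 for 2-fold, stands beside every single-gene value that follows.

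At 2 h 668 genes (6.58%) passed 2-fold, against 8.47% at 1 h, 7.07% at 4 h and 21.9% at 6 h. Of the 668, 248 had a positive log ratio (2.44%) and 420 a negative one (4.14%). The negative side was also the longer one. Past 3-fold there were 31 positive and 145 negative genes, past 5-fold 3 and 54, and past 10-fold 0 and 23. Over all genes the signs were balanced, with 5047 positive, 5104 negative and a median of -0.000738. Genes with 1 spot passed 2-fold in 7.35% of cases and genes with 2 or more spots, whose mean has the smaller spot error, in 4.14%.

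The immediate early transcription factors were mostly on the positive side. Of 31 on the list, all measured, 20 had a positive log ratio (64.5%, against 49.7% of all genes). Of these 4 passed 2-fold upward, and none of the list passed it downward (12.9% against 6.58% of all genes). Their median was 0.0425. Egr4, a zinc finger factor of the early growth response family, had the highest ratio of the list, at 3.16-fold. Its log ratio was -0.33, 0.50, 0.27 and -0.014 at 1, 2, 4 and 6 h. Egr2, a second member of that family, had -0.19, 0.44, 0.17 and 0.86 at 1, 2, 4 and 6 h, so that 2 h was not its highest time. Egr1, the member most often used to map active CA1 cells, had -0.44, 0.31, -0.008 and -0.29 at 1, 2, 4 and 6 h. Srf, the serum response factor, which drives many immediate early genes, had 0.24, 0.31, 0.38 and 0.16 at 1, 2, 4 and 6 h. These 3 Egr genes were thus negative at 1 h and past 2-fold at 2 h, whereas Srf was positive at each time. Egr3, also of that family, had no value at 1 h and did not pass 2-fold at 2 h.

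The other transcription factors of this kind named here had smaller values at 2 h. The list also held 11 negative members, the lowest at -0.257, and none of these is named. Fos, which pairs with Jun proteins to form AP-1, had 2 spots at 0.046 and 0.26, and its mean was 0.15 at 2 h, against -0.04 at 1 h, -0.054 at 4 h and 0.0036 at 6 h. Jun had 0.20 and Junb, another AP-1 subunit, 0.13 at 2 h. Egr3 stood at 0.17 at 2 h, with 0.28 at 4 h and 0.0072 at 6 h. Atf3, a stress-induced factor, was at 0.22. Nr4a1, an orphan nuclear receptor induced by activity, was at 0.09 and Klf4, a zinc finger factor, at 0.085. None of these reached 2-fold at 2 h, where Jun and Atf3 were the highest of them, at 1.6-fold and 1.67-fold.

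Among the effector genes of neuronal activity, 18 of 31 measured were positive, 3 passed 2-fold upward and none downward (9.68% against 6.58% of all genes), with a median of 0.00918. Inhba, which encodes the subunit of activin A, had 0.15, 0.40, 0.58 and 0.037 at 1, 2, 4 and 6 h. Arc, whose protein acts at synapses to take up AMPA receptors, had -0.19, 0.38, 0.52 and 0.18 at 1, 2, 4 and 6 h. Both were higher at 4 h than at 2 h. Zfp36, an RNA-binding protein that speeds the decay of messages with AU-rich ends, had 0.072, 0.35, -0.061 and -0.73 at 1, 2, 4 and 6 h, with 2 h as its highest time. Spry2, an inhibitor of growth factor signalling, had 0.27 over 2 spots at 0.48 and 0.054. Bdnf, the brain-derived neurotrophic factor, had 0.13, with spots at 0.082 and 0.17. Dusp1, a MAP kinase phosphatase, stood at 0.031, with spots at 0.026 and 0.036, while its 4 h value was 0.47. Homer1, a postsynaptic scaffold gene with an activity-induced short form, had a mean of -0.038, but its 4 spots ran from -0.31 to 0.52 and do not give one direction.

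**Figure D1:**
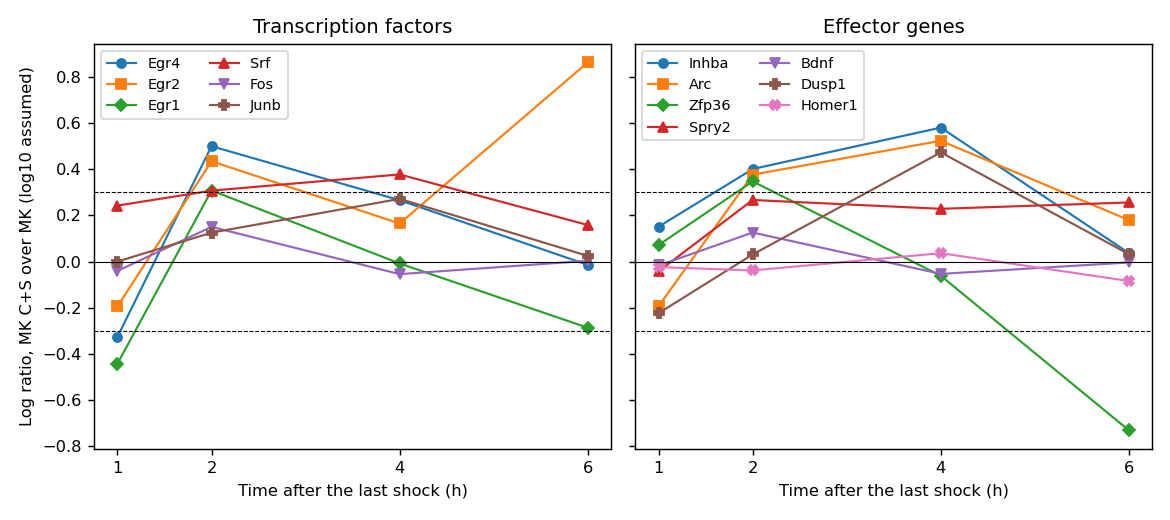
Log ratio of MK C+S over MK (log10 assumed) against time after the last shock for 6 immediate early transcription factors (left) and 7 effector genes (right). Each point is the mean over the spots of a gene on 1 array, lines join the arrays, and dashed lines mark 2-fold. Egr4, Egr2 and Egr1 lie below 0 at 1 h and above the upper dashed line at 2 h.

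These medians changed when the values of spots close in spot number were allowed for. After a running median over 51 neighbouring spots was subtracted, the median of the transcription factors was -0.00127 and that of the effectors -0.0105, so neither list's shift kept its sign. The single values moved less: Egr4 was then at 0.48, Egr2 at 0.40, Egr1 at 0.27, Srf at 0.30, Arc at 0.30, Inhba at 0.32 and Zfp36 at 0.35. Egr1 alone of the 7 went below 2-fold. Each of the 7 was measured by 1 spot. Over the list members with 2 or more spots, the median was -0.0205 for 5 transcription factors and -0.011 for 18 effectors. Over all genes with 2 or more spots it was -0.0163.

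Promoter windows are shown for the 5 of these 7 genes that are in the promoter table, because their log ratios passed 2-fold at 2 h. Srf and genes known to be driven by it are among them. The windows are the 250 bases before a transcription start in the RefSeq annotation of GRCm38.p6, read 5′ to 3′ on the strand of the gene. Capitals mark the CArG box, the sequence bound by the serum response factor, and TGACG or its reverse complement CGTCA, the core of the element bound by CREB.
Egr4 (chr6:85513590-85513839, minus strand): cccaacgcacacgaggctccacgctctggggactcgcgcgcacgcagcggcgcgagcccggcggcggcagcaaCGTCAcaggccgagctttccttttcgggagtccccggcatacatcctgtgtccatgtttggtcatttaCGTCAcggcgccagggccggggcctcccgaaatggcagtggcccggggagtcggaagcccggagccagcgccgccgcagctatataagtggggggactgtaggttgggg
Egr2 (chr10:67537619-67537868, plus strand): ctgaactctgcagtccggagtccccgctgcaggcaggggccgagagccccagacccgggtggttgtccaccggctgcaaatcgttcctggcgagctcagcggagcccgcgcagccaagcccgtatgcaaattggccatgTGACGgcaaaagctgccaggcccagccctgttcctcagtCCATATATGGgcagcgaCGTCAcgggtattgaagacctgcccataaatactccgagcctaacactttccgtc
Srf (chr17:46556163-46556412, minus strand): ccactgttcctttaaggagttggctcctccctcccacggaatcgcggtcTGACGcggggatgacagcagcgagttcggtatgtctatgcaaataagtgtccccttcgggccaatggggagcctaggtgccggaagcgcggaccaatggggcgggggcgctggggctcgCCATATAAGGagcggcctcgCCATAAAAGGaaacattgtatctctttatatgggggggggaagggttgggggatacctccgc
Zfp36 (chr7:28379229-28379478, minus strand): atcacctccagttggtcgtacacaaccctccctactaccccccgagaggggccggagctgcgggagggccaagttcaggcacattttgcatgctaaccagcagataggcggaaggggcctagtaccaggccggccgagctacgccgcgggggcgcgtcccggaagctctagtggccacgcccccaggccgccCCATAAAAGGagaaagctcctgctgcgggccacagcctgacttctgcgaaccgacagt
Inhba (chr13:16011601-16011850, plus strand): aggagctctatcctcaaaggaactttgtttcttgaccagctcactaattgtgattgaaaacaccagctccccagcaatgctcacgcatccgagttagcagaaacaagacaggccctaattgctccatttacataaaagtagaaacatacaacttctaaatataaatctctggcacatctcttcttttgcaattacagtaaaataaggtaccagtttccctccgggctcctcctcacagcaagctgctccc
Egr2 has 5 windows, some overlapping, and the one printed is the third, while the others have 1 each. A CArG box lay in at least 1 window of 3 of the 5 genes (Egr2, Srf and Zfp36), and in 4 of the 5 Egr2 windows, of which 3 also held TGACG. Those 3 windows overlap and hold the same box. Inhba held neither motif. The box lay 72 bases before the start in the Egr2 window printed, 58 in that of Zfp36, and 82 and 62 in that of Srf, which has 2. TGACG was found on either strand in the windows of Egr2, Egr4 and Srf, and no window of the 5 genes held the full palindrome TGACGTCA. Over all 32851 windows of 250 bases in the table, 1.47% held a CArG box, 17.8% TGACG and 1.55% TGACGTCA. Counted by gene, as for the 5 above, 1.62%, 19.8% and 1.77% of 27025 genes held them in at least 1 window. The 5 genes come from lists of genes known to respond to activity, and the other members of those lists were not counted apart. A share above that of all genes therefore does not bear on the 2 h values. A match is a description of the letters, and the array holds no measure of binding.

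The measured genes of the receptors that MK-801 and glutamate act on gave no ratio past 2-fold. Of 14 ionotropic glutamate receptor genes in the annotation 11 were measured. Grin1, an NMDA receptor subunit, and Gria2, an AMPA receptor subunit, had no value at 2 h. Of the 11 genes measured, 7 were positive and none passed 2-fold, against 6.58% of all genes. Their median was 0.0234, and -0.0153 with the running median removed. Grin2a, which encodes an NMDA receptor subunit with fast kinetics, was at -0.19, with spots at -0.069 and -0.31. Grin2b, the subunit with slower kinetics, was at 0.017, or -0.029 with the running median removed, Grin2d, another NMDA receptor subunit, at 0.20, and Gria1, an AMPA receptor subunit, at -0.043. Gria3, a further AMPA receptor subunit, had the lowest value, -0.25.

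Among other receptors and channels, a few genes of 1 spot passed 2-fold. Of 61 potassium channel genes 24 were positive and 1 passed 2-fold (1.64%, against 6.58% of all genes), Kcnn2 at 0.41, a small-conductance calcium-activated channel that shapes the after-hyperpolarisation. Of 26 sodium and calcium channel genes, 1 passed upward and 2 downward (11.5%): Cacna1a, the pore of P/Q-type calcium channels, at 0.31, Cacna1b, that of N-type channels, at -0.64, and Cacna1i, a T-type channel, at -0.58. Cacna1b was negative on all 4 arrays, from -0.55 at 1 h to -1.08 at 6 h. Chrm3, a muscarinic acetylcholine receptor, was the only gene of 35 monoamine and acetylcholine receptors past 2-fold (2.86%), at 0.43. Of 16 GABA and glycine receptor genes 2 passed downward (12.5%), Gabrr2 at -0.61 and Glra3 at -0.31. The 2 spots of Gabrr2 stood at -0.13 and -1.08, so its mean rested on 1 of them.

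Of 26 genes of calcium signalling 9 were positive (34.6%, against 49.7% of all genes), with a median of -0.0481, or -0.0198 with the running median removed. Of these 1 passed 2-fold upward and 2 downward (11.5%). Camk4, a nuclear kinase that activates CREB, was at 0.33. Camk2b, a subunit of the kinase CaMKII, was at -0.36, with spots at -0.63 and -0.079, and Atp2b2, a plasma membrane calcium pump, at -0.40. Of 20 neurotrophic factors and receptors 12 were positive, with 2 past 2-fold each way (20% against 6.58% of all genes). Inhba is on that list too. Gfra3, a receptor for the artemin branch of the GDNF family, was at 0.33, and Ntrk2, the receptor for BDNF, had 0.39, -0.37, -0.31 and -0.67 at 1, 2, 4 and 6 h. Of 13 CREB and ATF genes 8 were positive, and the 1 past 2-fold (7.69%) was Atf2, at -1.99 from 1 spot. Genes of PKA, PKC and cyclic AMP (22 of 38 positive, 2 past 2-fold, both downward, or 5.26%) and of the Ras and MAP kinase pathway (25 of 46 positive, 1 past it, downward, or 2.17%) had medians of 0.033 and 0.027, or 0.0315 and 0.011 with the running median removed.

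Vesicle and scaffold genes had about as many positive as negative members. Of 48 synaptic vesicle and SNARE genes 25 were positive and 1 passed 2-fold each way (4.17%, against 6.58% of all genes). These were Stxbp2, a syntaxin-binding protein, at 0.42, and Vamp7, a SNARE of late endosomes, at -0.39 with spots at -0.30 and -0.48. Of 18 postsynaptic scaffold genes 9 were positive and 1 passed 2-fold (5.56%). Lin7c, a small PDZ protein, passed downward at -0.61, but its 3 spots stood at -0.23, -0.20 and -1.41, and their median was -0.23.

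Heat shock proteins and chaperones were the list with the highest median of those drawn in the plot of gene lists at 2 h. Of 59 measured, 40 were positive (67.8%, against 49.7% of all genes). Past 2-fold there were 5 upward and 1 downward (10.2%, against 6.58% of all genes). The median was 0.068, or 0.0184 with the running median removed. Hspa1a, the inducible Hsp70, had -0.073, 0.45, 0.024 and -0.14 at 1, 2, 4 and 6 h, so it was past 2-fold at 2 h alone. Cct6b, a subunit of a chaperonin, had 0.42, Cryab, a small heat shock protein of glia and lens, 0.38, and Dnaja3, a mitochondrial Hsp40, -0.76. With the running median removed these stood at 0.44, 0.35, 0.36 and -0.71, all still past 2-fold.

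**Figure D2:**
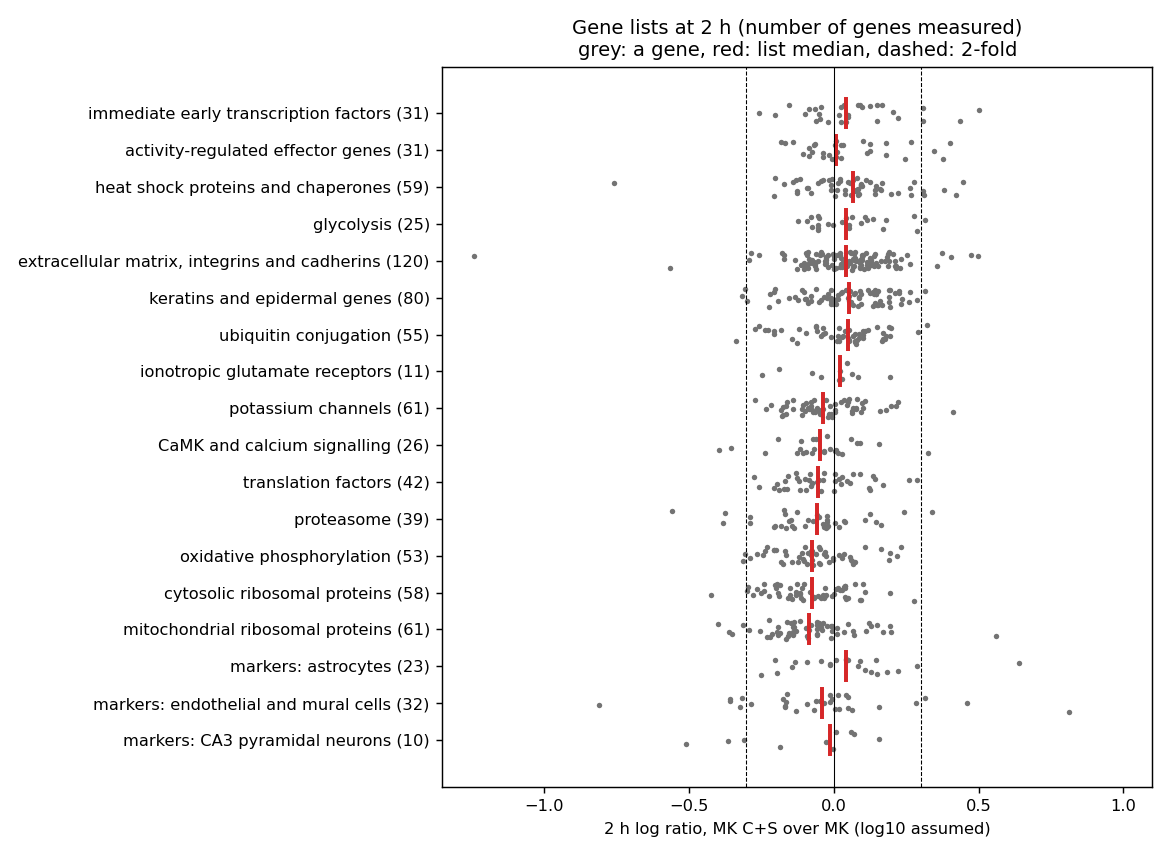
Log ratio at 2 h of the genes of 18 lists, with the number of genes measured in parentheses. Grey points are genes, red bars are list medians and dashed lines mark 2-fold. The medians run from -0.0867 for mitochondrial ribosomal proteins to 0.068 for heat shock proteins and chaperones, while single genes reach -1.24 and 0.81.

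Genes of translation and respiration were mostly on the negative side, where 50.3% of all genes lay. Of 58 cytosolic ribosomal protein genes 39 were negative, with a median of -0.0751, and 1 passed 2-fold, Rps20 at -0.42. Of 61 mitochondrial ribosomal protein genes 47 were negative, with a median of -0.0867, and 4 passed downward and 1 upward. Mrpl12 was at -0.40, with spots at -0.41 and -0.39, Mrpl52 at -0.36 and Mrps16 at -0.35. Mrps24, the one past 2-fold upward, had 0.56, 0.56, 0.58 and 0.52 at 1, 2, 4 and 6 h, a ratio close to constant over the 4 arrays. Of 53 oxidative phosphorylation genes 39 were negative, with a median of -0.074, and 2 passed downward. Sdhb, the iron-sulphur subunit of complex II, was at -0.31, and Atp5j, a subunit of ATP synthase, was at -0.31 with spots at -0.66 and 0.05. Translation factors were negative for 25 of 42 and proteasome genes for 29 of 39, with medians of -0.0542 and -0.0576.

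These 5 medians kept their sign with the running median removed, at -0.0699, -0.0667, -0.0714, -0.0517 and -0.0706 in the order given. The share of members past 2-fold was 1.72% for the cytosolic and 8.2% for the mitochondrial ribosomal proteins, 3.77% for oxidative phosphorylation, 0% for translation factors and 10.3% for the proteasome, against 6.58% of all genes. At 4 h the cytosolic ribosomal and oxidative phosphorylation lists had medians of 0.0765 and 0.0376, and at 6 h 0.0726 and 0.0505, opposite in sign to those at 2 h. At 1 h both were negative, at -0.0726 and -0.0388. The mitochondrial ribosomal list had medians of -0.0596, -0.0172 and 0.017 at 1, 4 and 6 h, and the proteasome list -0.00274, -0.0412 and 0.0226. Translation factors were negative at each of these times, at -0.00364, -0.0583 and -0.0192.

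Within the proteasome list, Psma2 and Psma8, both alpha ring subunits, were at -0.56 and -0.38, and Psmd13, a lid subunit, at -0.38. Psme1, an activator cap subunit induced by interferon, was at 0.34. Ubiquitin conjugation genes were positive for 35 of 55, with a median of 0.0502. Uba3, a catalytic subunit of the enzyme that activates NEDD8, was at 0.32 with spots at 0.021 and 0.62, and Ube2v1, a ubiquitin-conjugating enzyme variant, at -0.34. Glycolysis genes were positive for 14 of 25, with a median of 0.0424, and Slc2a1, the glucose transporter of the blood-brain barrier, was at 0.32. Of 17 clock genes 9 were positive, and Per2, a repressor of the circadian clock that also responds to CREB, had -0.098, 0.45, 0.19 and -0.20 at 1, 2, 4 and 6 h. Tsc22d3, a glucocorticoid-induced gene, was the 1 of 18 stress-response genes past 2-fold (5.56%, against 6.58% of all genes), at 0.31. All but Uba3 and Ube2v1 rested on 1 spot here, and in those 2 genes 1 spot lay past 2-fold and the other did not.

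The markers of CA1 itself were few. Of 5 CA1 pyramidal markers measured, 4 were positive, and their median of 0.0916 was 0 with the running median removed. Wfs1, which marks CA1 against the other fields, was at 0.10, or -0.044 with the running median removed. Klk8, a protease that acts in hippocampal plasticity, was the negative one and the only one past 2-fold (20.0%, against 6.58% of all genes). It was at -0.43, with both spots past 2-fold, at -0.46 and -0.40. Of 10 CA3 markers 6 were negative and 3 passed 2-fold downward (30%, against 4.14% of all genes downward and 6.58% either way). These were Iyd at -0.51, Nectin3, a synaptic adhesion protein, at -0.36 and Bok, a member of the Bcl-2 family, at -0.31, or -0.27 with the running median removed. The 4 spots of Nectin3 ranged from -1.33 to 0.21. In a dissected tissue, fewer cells of a type and less RNA per cell cannot be told apart.

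Vascular markers were the most spread of the cell type lists drawn. Of 32 endothelial and mural markers 12 were positive, 3 passed 2-fold upward and 5 downward (25% against 6.58% of all genes), with a median of -0.04. Cldn5, the tight junction protein of brain endothelium, had -0.46, -0.81, -0.13 and 0.0031 at 1, 2, 4 and 6 h. Sox17, an endothelial transcription factor, had 0.14, 0.81, -0.27 and -0.51 at 1, 2, 4 and 6 h, and Pecam1, an adhesion protein of the same cells, had 0.072, 0.46, -0.12 and -0.37 at 1, 2, 4 and 6 h. Itm2a was at -0.36, with both spots past 2-fold, at -0.31 and -0.40. Genes that mark one cell type thus stood past 2-fold on both sides at 2 h, and Sox17 and Pecam1 had the opposite sign at 4 and 6 h.

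Of 23 astrocyte markers 14 were positive, with a median of 0.0422, or 0.0187 with the running median removed. Dio2, which makes active thyroid hormone in astrocytes, was the 1 past 2-fold (4.35%, against 6.58% of all genes). Its log ratio was 0.27, 0.64, 0.41 and 0.23 at 1, 2, 4 and 6 h. Aldoc, an aldolase of astrocytes, was at 0.29 and Gfap, their intermediate filament, at 0.13. Slc1a3, a glutamate transporter of astrocytes, had the lowest value of the list, -0.25, from spots at -0.64, -0.12 and 0.011. Of 18 oligodendrocyte markers 10 were positive and of 20 microglial markers 9, with 1 past 2-fold downward in each (5.56% and 5.0%), Nkx6-2 at -0.31 and Fcgr2b at -0.47. Of 19 blood cell markers 10 were positive, with a median of 0.0243 (-0.0497 with the running median removed) and 15.8% past 2-fold. They include Car1, an erythroid carbonic anhydrase, at -2.66, the embryonic globin Hbb-y at -0.89 and S100a9, a protein of neutrophils, at 0.52 from spots at 0.086 and 0.95. Of 13 choroid plexus and ependymal markers 6 were positive, with 1 past 2-fold upward and 2 downward (23.1% against 6.58% of all genes). Cldn1, a tight junction protein, was at 0.30, or 0.19 with the running median removed, Ttr, the transthyretin of choroid plexus, at -0.66, and Kl, which encodes klotho, at -0.34 from spots at -0.017, -0.14 and -0.86. The part of such cells in the results was not tested.

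Lists of genes that are not typical of CA1 were described in the same way. Olfactory and vomeronasal receptor genes, which are expressed in sensory epithelia, passed 2-fold for 21 of 103 (20.4%, against 6.58% of all genes). Of these 8 passed upward and 13 downward. Olfr1537 was at -1.26 and Vmn1r62 at -0.73. Keratins and epidermal genes passed for 3 of 80 (3.75%), and 50 were positive (62.5%, against 49.7% of all genes). Their median was 0.0533, or 0.035 with the running median removed. The olfactory share past 2-fold was above the 12.9% and 9.68% of the activity-regulated lists, and the keratin median was above the 0.0425 of the transcription factors.

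Of 120 genes of extracellular matrix, integrins and cadherins 76 were positive (63.3%, against 49.7% of all genes). Their median was 0.0437, or 0.019 with the running median removed. Col7a1, a collagen of anchoring fibrils, was at 0.50 and Cdh17, a cadherin of intestine, at 0.47, while Fbln2, a matrix protein, had -0.79, -0.56, -1.58 and -1.23 at 1, 2, 4 and 6 h. Of all genes 6.58% passed 2-fold, 2.44% upward and 4.14% downward, and the shares of the lists that follow stand beside these. Of 169 solute carriers 79 were positive, and 2 passed 2-fold upward and 12 downward (8.28%). Slc6a6, the taurine transporter, was at -0.72, and Slc25a35, a mitochondrial carrier, at -0.78. Of 145 cytokines, chemokines and receptors 75 were positive, with 4 past 2-fold upward and 3 downward (4.83%). Cxcl1, a neutrophil chemokine, was at -0.51, and Il9r, a cytokine receptor, at -0.49 from spots at -0.95 and -0.033. Of 21 neuropeptides 12 were positive, with 1 past 2-fold upward and 2 downward (14.3%). Gnrh1, the gonadotropin-releasing hormone, was at 0.32, Nts, neurotensin, had -0.26, -0.65, 0.45 and 0.051 at 1, 2, 4 and 6 h, and Tac2, neurokinin B, was at -0.41 from spots at -0.81 and 0.0038. Of 56 chromatin modifiers 31 were positive, with 1 past 2-fold upward and 3 downward (7.14%). Sin3b, a corepressor, was at -0.55, Kdm5d, a histone demethylase of the Y chromosome, at -0.39 and Tet1, which oxidises methylcytosine, at -0.36. Of 47 cytochrome P450 genes 4 passed upward and 1 downward (10.6%), among them Cyp2c37 at 0.41.

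The 12 highest genes among those measured on all 4 arrays reached from 0.54 to 0.82, with 1 spot each. Tnfrsf25, a death receptor, had -0.29, 0.82, -0.18 and -0.42 at 1, 2, 4 and 6 h. Cyp2j5, a cytochrome P450 with few known roles in brain, had 0.38, 0.75, 0.083 and 0.19 at 1, 2, 4 and 6 h. Zfp275 had 0.67, Rsrp1 0.65, Pla2g10, a secreted phospholipase, 0.64, Zp3r 0.58, Arid3b, a DNA-binding protein, 0.55 and Rgn 0.54. Meg3, a long non-coding RNA of neurons, had -0.16, 0.57, -0.15 and -0.69 at 1, 2, 4 and 6 h. Sox17, Dio2 and Mrps24, given with their lists, complete these 12. Of them only Dio2, Cyp2j5, Mrps24 and Arid3b were positive at each of 2, 4 and 6 h.

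The 12 lowest reached further. Car1 had -0.42, -2.66, -2.21 and -0.79 at 1, 2, 4 and 6 h, which is 454-fold at 2 h from 1 spot. Slc10a2, the ileal bile acid transporter, had -1.61, -1.98, 0.12 and -1.24 at 1, 2, 4 and 6 h. Diablo, which releases caspases from inhibition, had 0.25, -1.30, -0.92 and -1.54 at 1, 2, 4 and 6 h. Denr, a factor of translation reinitiation, Trim44, a ubiquitin-related protein, Ptx4, a pentraxin, and Ano10, an anoctamin, stood at -1.14, -1.13, -1.11 and -1.05 at 2 h, while none of them passed 2-fold at another time. Tysnd1, a peroxisomal protease, was at -0.999. Trhr, the receptor of thyrotropin-releasing hormone, had spots at 0.059 and -3.10. Timp1, an inhibitor of matrix proteases, had spots at -0.034 and -2.45, and Slc30a1, a zinc exporter, at -0.076 and -1.80. Hbb-y completes these 12. In Trhr, Timp1 and Slc30a1 1 spot of the pair was close to 0, so the mean rests on the other. Outside the 12, Atf2 and Map3k7, a kinase upstream of JNK and NF-kB, stood at -1.99 and -1.83, and both lacked a value on 1 of the other arrays. Map3k7 was close to constant where measured, with -1.79 at 1 h and -1.85 at 6 h, while Atf2 had -1.04 at 4 h and -0.12 at 6 h. Scd1, Igfbpl1 and Edil3, at -1.979, -1.955 and -1.573 from 1 spot each, also lacked a value on at least 1 other array.

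Only 12 of the 2437 genes with repeated spots had each spot past 2-fold in one direction, of which 2 were positive and 10 negative. Over all measured spots 7.94% passed 2-fold. How many such genes unrelated spots would give was not worked out, so the 12 are listed as values only. In a further 16 genes spots passed 2-fold in opposite directions. The spots of a gene all had one sign in 1205 genes (49.4%). The 2 positive genes were Ccnl1, a cyclin that acts on splicing, with spots at 0.31 and 0.34, and Serpini2, a serine protease inhibitor, with 0.36 and 0.50. Among the negative ones Nxf1, the main exporter of messenger RNA from the nucleus, had spots at -0.58 and -0.91 and was negative at each time, with -0.25 at 1 h, -0.46 at 4 h and -0.27 at 6 h. Slc6a2, the noradrenaline transporter, had spots at -0.65 and -0.48. The CA1 marker Klk8 had -0.46 and -0.40. Bckdha, of branched-chain amino acid breakdown, had -0.59 and -0.60, and Ei24, an endoplasmic reticulum protein, -0.60 and -0.49. Arf5, a small GTPase of the Golgi, had -0.59 and -0.50 at 2 h but a mean of 0.42 at 4 h. Slco1a1, an organic anion transporter, had -0.70 and -0.54 from 1 accession, and Cd5, a T-cell protein, -0.43 and -0.44. Mrpl12 and Itm2a complete the 10. The spots of these genes share a direction and a size past 2-fold, but the genes were picked for that and the spots come from 1 hybridisation.

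**Figure D3:**
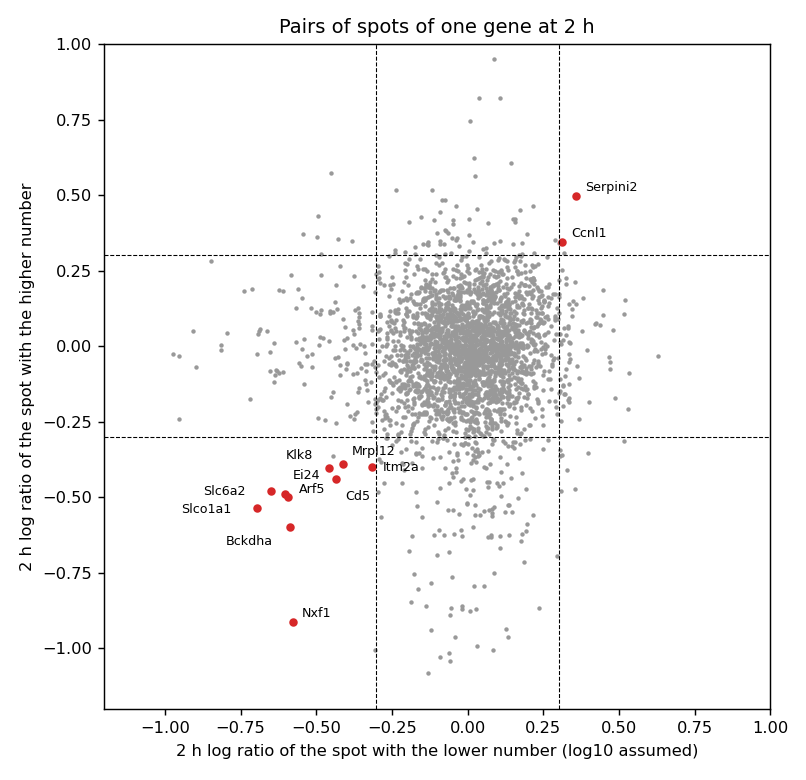
Log ratio at 2 h of the spots of one gene, taken in pairs (Gapdh left out). The axes show the spot with the lower and the higher number, dashed lines mark 2-fold, red points are the 12 genes whose spots all passed 2-fold the same way, and 15 pairs beyond the axes are not drawn. The 2916 pairs drawn form a round cloud, and pairs far out on one axis mostly lie near 0 on the other.

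Gapdh, a glycolytic enzyme often taken as a reference, was spotted many times over. Its 24 spots at 2 h had a median of 0.224, a mean of 0.0942 and an SD of 0.301. Of these spots 18 lay between 0.144 and 0.419, and 6 between -0.597 and -0.00626. The median was -0.0814 over 14 spots at 1 h, 0.0248 over 25 spots at 4 h and 0.198 over 24 spots at 6 h. At 2 h most Gapdh spots thus had a positive log ratio of 1.68-fold at their median, larger than the central 50% of genes.

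**Figure D4:**
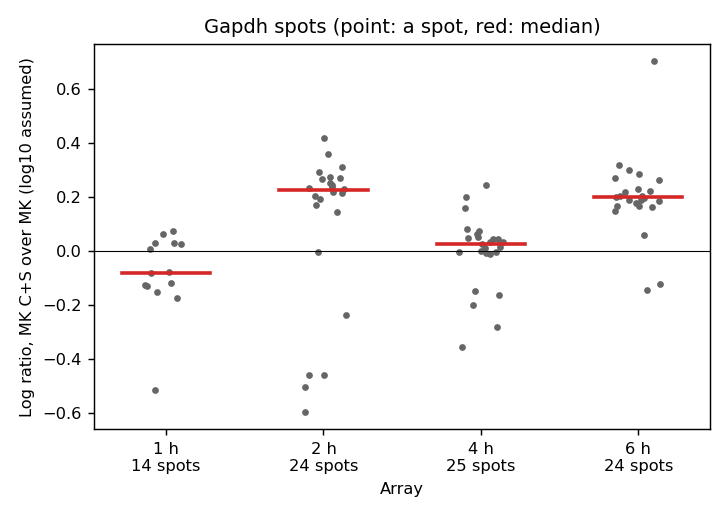
Log ratio of MK C+S over MK (log10 assumed) of each Gapdh spot on the 4 arrays, with the median in red and the number of measured spots under each time. At 2 h 18 spots lie above 0 and 6 below, and the median is 0.224.

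Spot number also went with the log ratio. Neighbouring spots had a Spearman correlation of 0.165, which is a description over spots that share an array. Spots numbered 15000 and above had a median of -0.0599, with 9.25% past 2-fold downward and 1.65% upward. Those below had a median of 0.0123, with 4.01% and 3.22%. With the running median removed, 580 genes in place of 668 passed 2-fold, and 36.7% of them were positive in place of 37.1%. The part of spot number in the single-gene values was not tested further, and the place of a spot on the array was not used.

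**Figure D5:**
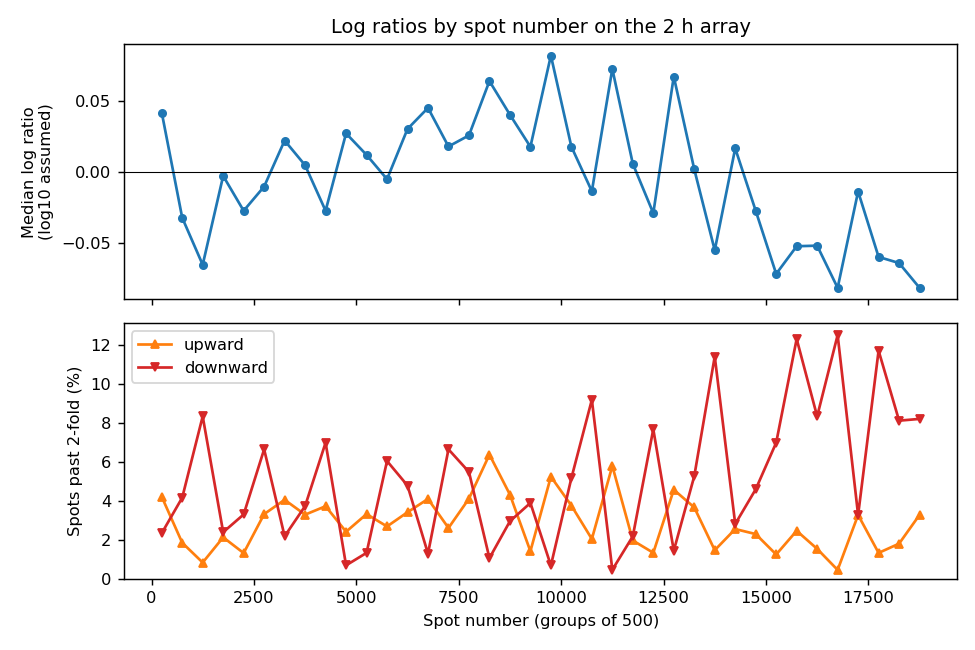
Median log ratio (top) and percentage of spots past 2-fold upward and downward (bottom) in groups of 500 spot numbers on the 2 h array. From spot 15000 on, the medians lie below 0 and the downward percentage is above the upward one in all groups but that from 17000, where the numbers are equal.

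The other arrays gave the only further samples of the same comparison, at other times. Over genes, the 2 h log ratios had a Spearman correlation of 0.168 with those at 1 h (8838 genes), 0.304 at 4 h (10001 genes) and 0.192 at 6 h (9815 genes). Genes are not independent replicates, and the 4 arrays share their spots and dye orientation. Of the 248 genes positive past 2-fold at 2 h, 134 of 202 measured were positive at 1 h, 166 of 240 at 4 h and 131 of 232 at 6 h, and 23, 35 and 40 passed 2-fold the same way. Of the 420 negative genes, 211 of 362 were negative at 1 h, 294 of 377 at 4 h and 290 of 363 at 6 h, and 38, 117 and 146 passed 2-fold the same way. The share of the negative genes that passed 2-fold again was thus 10.5% at 1 h, 31.0% at 4 h and 40.2% at 6 h, against 11.4%, 14.6% and 17.2% for the positive ones. Among all genes negative at 2 h these shares were 4.16%, 7.68% and 13.6%, and among all positive ones 5.98%, 3.0% and 11.1%.

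To ask which genes stood apart at 2 h, the 2 h value was set against the mean of the 3 other arrays with limma over the 8553 genes measured on all 4. None passed an adjusted p of 0.05 (0%), and the lowest limma adjusted p was 0.999. At an unadjusted p under 0.05 there were 138 genes (1.61%), 79 higher and 59 lower at 2 h. The residual spread in this fit is that between times, with 2 degrees of freedom, so a gene that varies over time is not separated from error. The lowest differences by moderated t were those of Trim44, -1.08 with an SE of 0.127, and Denr, -0.99 with an SE of 0.125. They were followed by Ano10 (-1.08), Hip1, a clathrin adaptor (-0.82), Trhr (-1.83) and Ptx4 (-1.17). The highest were those of Tnfrsf25, 1.11 with an SE of 0.148, and Rsrp1, 0.92 with an SE of 0.162. Clk1 (0.74), Proser1 (0.70), Amy2a5, a pancreatic amylase (0.52), and Ak7, an adenylate kinase of cilia (0.51), came next. Egr1 differed by 0.55 with an SE of 0.198, Egr4 by 0.53 with an SE of 0.243, Hspa1a by 0.51 with an SE of 0.135 and Per2 by 0.49 with an SE of 0.187, each with a limma adjusted p of 0.999.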

How the data were processed

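CA1 RNA was measured on 4 arrays of 2 channels each, 1 per time (1, 2, 4 and 6 h), with MK in Cyanine-3 and MK C+S in Cyanine-5 per the labels. Each deposited value is the log ratio of 1 spot and was read as log10. Base and direction are not stated. The sources used here name no scanner, background correction or normalisation by the authors. Signal over background is unknown without intensities, and precision is limited by having 1 array per time.

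Exact zeros were read as not measured, each column was centred on its median, and the spots of a gene were averaged. Of 16281 spots, 13738 had exactly 1 gene symbol in the platform annotation, 52 several and 2491 none. These are 10698 genes. Samples were grouped by the time in the labels. At 2 h counts past 2-fold and list medians were used, with no test. The 2 h value was compared with the mean of the other arrays by limma 3.58.1 (lmFit, eBayes, Benjamini-Hochberg) in R 4.3.3, and the rest used Python 3.11.15 with pandas 2.3.3 and scipy 1.17.1. Tested on simulated data over 8553 genes, this limma comparison called 74 of 100 genes changed by 1.2 log10 units, 98 of 100 changed by 2.4 and 8 unchanged genes. Both sizes lie past 10-fold, which 0 positive and 23 negative genes reached at 2 h, and all changed genes were planted together. Smaller changes were not simulated, so the power at the sizes of most genes here is not known.

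Genes were named by rule: the 12 highest and 12 lowest at 2 h among genes measured on all 4 arrays, genes whose spots all passed 2-fold the same way, up to 4 members of each of 59 lists by size, 26 set names, and the 6 most positive and 6 most negative by moderated t. A further 14 names were looked up after values were seen. Members, lists and rules were chosen with earlier results of these data known. Alternatives were other folds, log bases, centring, spot averaging, treatment of zeros, a running median over 51 spots, and leaving out arrays. The running median for the limma comparison was chosen after seeing the data. Promoter windows are those of RefSeq (GRCm38.p6).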

Additional observations from a re-analysis of the deposited data

How the results depend on the processing

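The count of 668 genes past 2-fold, 37.1% of them positive, depended most on the assumed log base: with natural logs 59 genes passed (5.08% positive), and with base-2 logs 23 (0%). Past 1.5-fold there were 2457 genes (46.5% positive) and past 3-fold 176 (17.6%). Genes with 2 or more spots gave 101 (11.9%), and each spot on its own gave 1016 spots (35.4%). The count was 482 over genes measured on all 4 arrays, 670 without centring, 665 with the median of spots, 651 with zeros kept as a ratio of 1 and 580 with the running median removed, with 36.7% to 38.6% positive. The limma comparison called 0 genes in each alternative run, with 27 to 257 genes at an unadjusted p under 0.05 and 84 to 250 when 1 other array was left out. Of 266 named genes 2 changed sign, Wfs1 (0.10 to -0.044) and Grin2b (0.017 to -0.029), both with the running median removed, and 109 of the 139 past 2-fold stayed past it the same way in that setting. The spot correlation was 0.0696 without spots past 10-fold. Many of the 59 list medians changed sign when taken only over genes with 2 or more spots. That of PKA, PKC and cyclic AMP went from 0.033 to -0.0138 over 26 genes, and that of splicing from -0.0414 to 0.0134 over 4. The CA1 markers went from 0.0916 to -0.43 over 1 gene, and the CA3 markers from -0.013 to 0.0703 over 3. Others that changed were -0.0285 for 10 astrocyte markers, -0.00588 for 27 matrix genes and -0.0134 for 8 ubiquitin conjugation genes. Heat shock genes (0.05 over 15), mitochondrial ribosomal proteins (-0.156 over 5) and the proteasome (-0.0618 over 8) were among those that kept their sign. No paired analysis was possible because each time has 1 array and the labels give no replicate numbers. With 1 array at 2 h, the spread between animals is not known.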

Other observations

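Some genes of splicing control and nuclear RNA were looked up after their values were seen, and they are given as values with no test. Clk1, a kinase of splicing factors, had a log ratio of -0.24, 0.44, -0.25 and -0.43 at 1, 2, 4 and 6 h. Clk4, of the same family, had 0.34 at 2 h from spots at 0.52 and 0.15. Ccnl1 had 0.0064, 0.33, -0.15 and -0.15 at 1, 2, 4 and 6 h, and its paralog Ccnl2 had 0.22 at 2 h from spots at 0.47 and -0.036. Rsrp1, a protein rich in arginine and serine, had -0.26, 0.65, -0.12 and -0.42 at 1, 2, 4 and 6 h. Rbm5, a splicing regulator, had 0.099, 0.21, -0.18 and -0.18 at 1, 2, 4 and 6 h, and Meg3 had -0.16, 0.57, -0.15 and -0.69 at 1, 2, 4 and 6 h. These 7 were positive at 2 h, and all but Clk4 were negative at 4 and 6 h. Xist, the RNA of the inactive X chromosome, was looked up with them and had -2.63, -0.71, 0.15 and -0.31 at 1, 2, 4 and 6 h, with 2 h spots at 0.018 and -1.44. Both samples came from male mice, and whether the Xist spots held signal above background is not known. The 7 were picked for their values, so their shared direction supports nothing. The list of 51 splicing and RNA binding genes had 22 positive genes and a median of -0.0414 at 2 h. None passed 2-fold upward and 4 passed downward (7.84%, against 6.58% of all genes either way). Srsf10, a splicing repressor, was at -0.67, Hnrnpr at -0.51, Snrpd2, a core spliceosome protein, at -0.34 and Nova1, a neuronal splicing factor, at -0.33.

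Of the 1871 measured spots with no gene in the annotation, 66 were positive past 2-fold and 85 negative, or 8.07%, against 7.94% of all measured spots.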
